A study of Mus musculus with 12 samples.

Results

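Gene expression in 2 neighboring nuclei of 129S1/SvImJ (S1) mice, basolateral (BLA) and central amygdala (CeA), was compared across 6 sequencing libraries, out of 12 in the whole series. They were chosen by their labels: 3 BLA libraries and 3 CeA libraries, 1 of each region from naive mice, from fear-conditioned mice (FC) and from mice taken through fear extinction (Ext). All S1 animals were wild-type males, and the other 6 libraries repeat the same layout in wild-type male C57BL/6 (B6) mice. The series was set up to find genes tied to the poor fear extinction of S1 mice, using tissue taken before and after conditioning and extinction. Its design text names the medial central amygdala (CEm) where the labels of the samples have CeA, the name kept below. Ages, the number of mice behind a library, and whether a BLA and a CeA library came from the same mice are not stated in the labels.

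The BLA is a cortex-like nucleus: most of its neurons are glutamatergic projection cells, born in the pallium, which receive sensory input and store associations with threat, beside a minority of GABAergic interneurons. The CeA is striatum-like: nearly all of its neurons are GABAergic, come from the subpallium, and carry neuropeptides such as enkephalin, dynorphin, somatostatin and corticotropin-releasing hormone. The BLA excites the CeA directly and through the intercalated cells, small GABAergic clusters between them, and the CeA projects to brainstem and hypothalamic centers that drive freezing and autonomic responses.

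Total counts were 42224899 to 61695302 per S1 library, and 17147 to 17630 genes had at least 1 count. Values below are in CPM, that is, a gene's counts scaled to its library's total count, and 3 counts corresponded to 0.0486 to 0.071 CPM. Each combination of region and condition was 1 library, so the 3 conditions stood in for replicates. The p-values of the region test therefore set the difference between BLA and CeA against its spread across the 3 conditions, not across mice. In all edgeR tests below, each gene's spread is drawn toward a trend fitted over all tested genes, so part of it is borrowed from other genes. The comparisons of conditions and of strains do not measure spread across mice either. In bulk tissue, fewer cells of a type and less RNA per cell cannot be told apart. The FC CeA library stood apart from the other CeA libraries in holding more of the BLA marker transcripts, and the Ext BLA library from the other BLA libraries in holding more of the CeA marker transcripts. Both are described with their values below.

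Of 15687 genes tested, 7760 differed between BLA and CeA at an adjusted p under 0.05 (edgeR's quasi-likelihood test with condition as a block), which is 49.5% of those tested. The calls divided evenly, with 3875 genes higher in BLA (24.7% of those tested) and 3885 higher in CeA (24.8%). These shares are the background for every count of gene list members below. The lists were chosen with earlier results of these data known, so such counts are no independent test. On the deposited FPKM values, with limma on log2(FPKM + 1), the number of calls was similar at 8055 but the division moved to 3108 higher in BLA and 4947 higher in CeA. Most differences were small: the median absolute log2 fold change of the called genes was 0.50, 952 genes were at least 2-fold higher in BLA (6.07%) and 851 at least 2-fold higher in CeA (5.42%). At least 4-fold differences were held by 354 genes on the BLA side and 286 on the CeA side. In 49.1% of the tested genes the 3 libraries of one region all lay above the 3 of the other in CPM, which are not scaled by TMM: BLA above CeA in 2938 genes and CeA above BLA in 4765. Of the called genes, 7752 had the same sign in all 3 conditions and 8 did not. Over all tested genes the median log2 difference, BLA minus CeA, was -0.01.

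Promoters of 4 genes with large differences between regions are shown. They comprise 2 for transcription factors of BLA projection neurons (Tbr1 and Neurod2) and 2 for genes higher in CeA. The latter are those of Slc18a2, the vesicular monoamine transporter, and Cartpt, a neuropeptide precursor. Each runs from 250 bases before to 50 bases after the RefSeq transcription start (GRCm38.p6, the assembly also called mm10) and is written 5′ to 3′ along the gene's strand. Capitals mark matches to any of 4 motifs searched on both strands: CAGATG (an E-box of the kind bound by neuronal basic helix-loop-helix factors, read as CATCTG on the other strand), TAATTA (the core of many homeodomain sites), TGACGTCA (the cyclic AMP response element) and TATAAA.
Tbr1, chr2:61804203-61804502, plus strand: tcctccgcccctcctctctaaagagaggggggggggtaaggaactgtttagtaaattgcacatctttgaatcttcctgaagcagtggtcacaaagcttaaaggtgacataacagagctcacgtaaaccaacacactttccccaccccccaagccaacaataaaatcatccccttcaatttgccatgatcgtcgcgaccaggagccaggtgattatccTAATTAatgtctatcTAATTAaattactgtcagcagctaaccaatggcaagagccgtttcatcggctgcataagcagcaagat
Neurod2, chr11:98329596-98329895, minus strand: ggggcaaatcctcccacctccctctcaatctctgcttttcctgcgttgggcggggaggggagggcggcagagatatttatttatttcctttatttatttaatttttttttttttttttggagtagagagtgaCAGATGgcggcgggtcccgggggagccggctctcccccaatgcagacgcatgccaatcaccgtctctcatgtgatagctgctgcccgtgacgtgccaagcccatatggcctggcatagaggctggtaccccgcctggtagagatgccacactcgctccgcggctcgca
Slc18a2, chr19:59260628-59260927, plus strand: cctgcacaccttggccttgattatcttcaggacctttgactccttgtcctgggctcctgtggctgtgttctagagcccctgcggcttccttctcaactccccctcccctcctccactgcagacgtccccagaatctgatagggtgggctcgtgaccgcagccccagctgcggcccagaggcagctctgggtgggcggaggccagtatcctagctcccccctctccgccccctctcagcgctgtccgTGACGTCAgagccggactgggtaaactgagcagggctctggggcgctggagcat
Cartpt, chr13:99900634-99900933, minus strand: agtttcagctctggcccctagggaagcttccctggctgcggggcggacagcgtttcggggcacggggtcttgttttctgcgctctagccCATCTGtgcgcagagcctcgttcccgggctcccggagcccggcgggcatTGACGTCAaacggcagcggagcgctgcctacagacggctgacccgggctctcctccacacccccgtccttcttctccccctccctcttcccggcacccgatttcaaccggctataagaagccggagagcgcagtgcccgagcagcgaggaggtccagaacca

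The Neurod2 promoter holds 1 CAGATG match beginning 118 bases before the start, and Tbr1 holds 2 TAATTA matches, 33 and 18 bases before it. Slc18a2 holds TGACGTCA 4 bases before the start, and Cartpt holds it 112 bases before the start together with an E-box on the other strand at 161. No match in these 4 windows overlaps another. The promoters of the cholecystokinin gene Cck, higher in BLA, and of the protein kinase C gene Prkcd, higher in CeA, were also searched and are not printed. Cck held CAGATG 30 bases before the start. Prkcd held TATAAA 244 bases before it and no TGACGTCA. Of the 12316 tested genes with a promoter entry, 11.9% held CAGATG, 2.68% TAATTA, 3.06% TGACGTCA and 7.41% TATAAA. Among 266 promoters of genes at least 4-fold higher in BLA the shares were 17.3%, 6.39%, 1.504% and 15.8%, and among 210 of genes at least 4-fold higher in CeA they were 15.7%, 3.81%, 2.38% and 10%. A match is a description of the letters only, and no difference between these shares was tested.

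Of the 15 genes with the largest BLA excess, 7 were on the list of BLA projection neuron markers. That list was chosen with earlier results of these data known, so the overlap is no independent support. Slc17a7, the vesicular glutamate transporter VGLUT1 (chr7:45163921-45176139, mm10), stood at 1896, 1857 and 1867 CPM in the naive, FC and Ext BLA libraries and at 16.7, 92.5 and 12.8 CPM in the matching CeA libraries. The BLA libraries were nearly level, while the FC CeA library was several-fold above the other CeA libraries and still far below any BLA library. The log2 fold change was 6.21 ± 0.65 (SE), a 73.8-fold difference (adjusted p = 0.000594), and it was 7.10 without the FC pair and 5.62 without the Ext pair. Tbr1, a T-box transcription factor of pallial glutamatergic neurons (chr2:61804453-61814113), had 138.3, 126.8 and 128.1 CPM in BLA and 1.37, 4.33 and 1.27 CPM in CeA. Its groups did not overlap, and it was 64.4-fold higher in BLA (log2 fold change 6.01 ± 0.39, adjusted p = 8.95e-05). The basic helix-loop-helix factors Neurod6, Neurod2, Neurod1 and Bhlhe22, which drive and maintain excitatory neuron identity, followed with log2 fold changes of 5.99 ± 0.57, 5.43 ± 0.48, 5.74 ± 0.62 and 5.34 ± 0.45. Without the FC pair these values were 7.16, 6.47, 10.1 and 6.28. Neurod1 was the lowest of them in abundance, at 2.54, 4.97 and 2.63 CPM in BLA, and had no count in the naive and Ext CeA libraries, so its value without the FC pair depends on the prior count and is no bound. Emx1, the homeobox gene of the dorsal telencephalon, had 9.38, 10.8 and 13.2 CPM in BLA against 0.0474, 0.494 and 0.0895 CPM in CeA.

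Zfp296, a zinc finger gene, was read only in BLA within S1 mice, at 2.17, 2.11 and 2.59 CPM with no count in any CeA library. Set against 3 counts over the CeA group, it was at least 116.5-fold higher in BLA. The remaining genes of the 15 with the largest BLA excess were Nrn1 (the neurite growth factor neuritin), Rtn4rl2 (a Nogo receptor relative), Tfap2d (transcription factor AP-2 delta), Otop2 (an otopetrin proton channel), and Ly6g6e, Ucma and Tbata. Nrn1 was the most abundant of these, with 143.7, 166.0 and 144.9 CPM in BLA and 1.47, 9.21 and 1.16 CPM in CeA. The BLA and CeA groups did not overlap for any of the 15, against 49.1% of all tested genes. The 15 were chosen by the size of this difference, so their separation follows largely from the choice. In 12 of the 15 genes the FC CeA library was at least 2-fold above both other CeA libraries. Leaving out the FC pair moved the fold change by over 1.5 times in 13 of the 15 genes, leaving out the Ext pair in 4 and leaving out the naive pair in 0, and all 15 kept their direction and call. For Tbr1, Emx1, Nrn1 and Rtn4rl2 the log2 fold changes without the FC pair were 6.75, 7.39, 6.88 and 7.12.

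**Figure D1:**
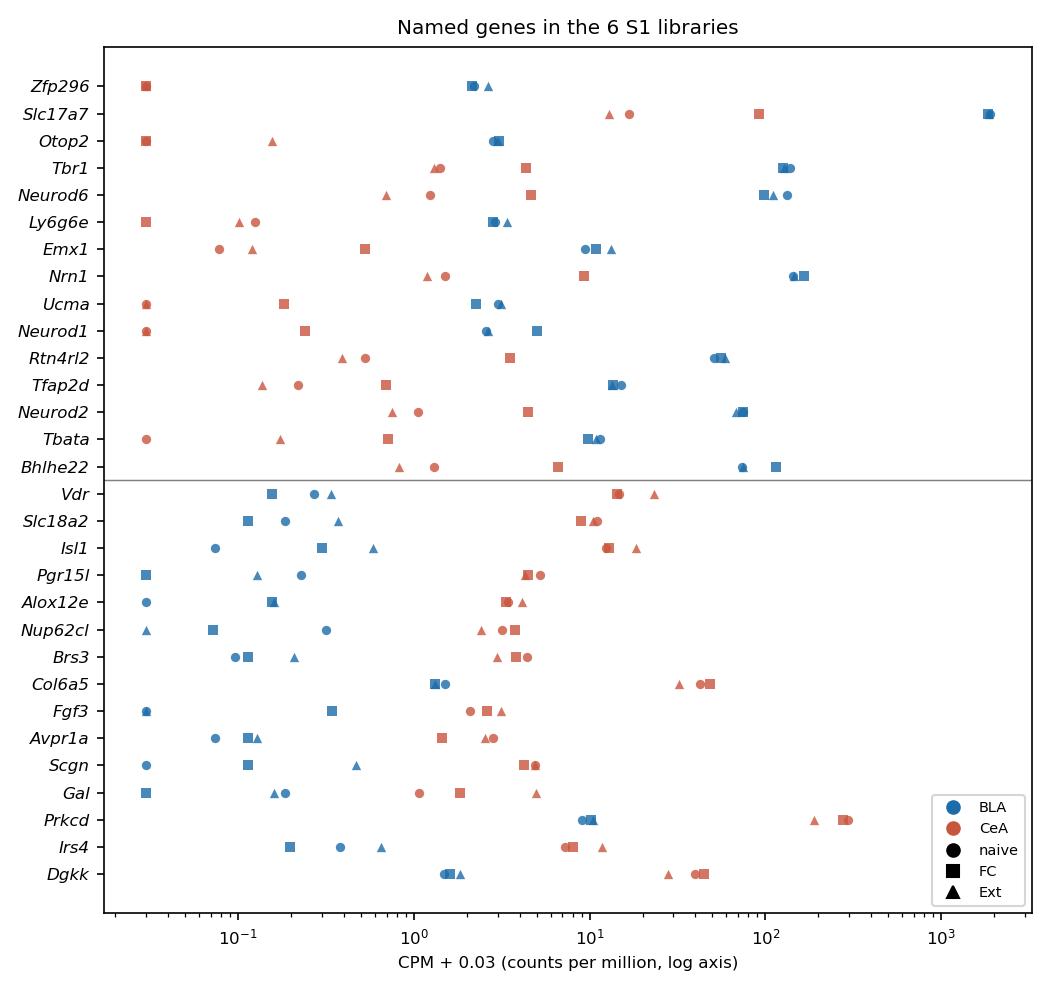
CPM + 0.03 on a log axis for the 30 genes with the largest differences between regions, 15 higher in BLA above the line and 15 higher in CeA below it, with 1 point per S1 library (blue BLA, red CeA; circle naive, square FC, triangle Ext). In every row the 3 points of one color lie to one side of the 3 of the other. Genes were chosen by the size of this difference, so such separation follows largely from the choice. For many BLA genes the red square (FC CeA) lies right of the other red points, as for Slc17a7 at 92.5 CPM.

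All 16 members of the BLA projection neuron list, chosen with earlier results of these data known, were higher in BLA. Their median log2 fold change was 5.10, against -0.01 over all tested genes. The zinc transporter of glutamatergic vesicles, Slc30a3, had 181.3, 203.6 and 216.6 CPM in BLA and 3.55, 16.2 and 5.78 CPM in CeA. Rspo2, a Wnt pathway ligand known as a marker of one class of BLA projection cells, had 55.6, 43.5 and 48.0 CPM in BLA and 0.900, 1.58 and 1.31 CPM in CeA (log2 fold change 5.34 ± 0.20, adjusted p = 2.23e-05). The smallest differences in the list belonged to Lmo3, Camk2a and Lypd1, and the cell types behind them were not tested. Camk2a, the alpha subunit of calcium/calmodulin kinase II, was abundant in both regions, with 3775, 4038 and 3061 CPM in BLA and 1587, 2004 and 1501 CPM in CeA (log2 fold change 1.18 ± 0.07). Lmo3, a LIM-only cofactor, differed least, by 0.66 ± 0.08 on the log2 scale.

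Of 19 tested transcription factors of the pallium, 17 were higher in BLA and 1 was higher in CeA (median log2 fold change 2.76). Zbtb18, a repressor needed in cortical projection neurons, was the most abundant of those with large differences outside the marker list, at 506.0, 473.4 and 447.7 CPM in BLA and 71.4, 80.9 and 71.5 CPM in CeA. The exception was Bcl11b, which layer 5 cortical neurons and striatal neurons both use, with 154.5, 157.7 and 125.0 CPM in BLA and 306.5, 252.2 and 273.7 CPM in CeA (log2 fold change -0.85 ± 0.09).

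On the CeA side, the largest difference was that of Vdr, the vitamin D receptor (chr15:97854427-97908296), with 0.241, 0.125 and 0.308 CPM in the naive, FC and Ext BLA libraries and 14.7, 14.2 and 23.4 CPM in CeA. It was 72.7-fold higher in CeA (log2 fold change -6.18 ± 0.16, adjusted p = 1.21e-05), with the Ext CeA library the highest. Prkcd, the delta isoform of protein kinase C, which marks a class of GABAergic neurons known mainly from the lateral part of the CeA (chr14:30595354-30626208), had 9.03, 10.2 and 10.4 CPM in BLA and 296.8, 275.0 and 188.2 CPM in CeA. The BLA libraries were level, the Ext CeA library was the lowest of the CeA libraries, and the difference was 23.6-fold (log2 fold change -4.56 ± 0.17, adjusted p = 2.03e-05). Slc18a2, which loads monoamines into vesicles, had 0.153, 0.0835 and 0.340 CPM in BLA and 10.9, 8.91 and 10.4 CPM in CeA. Isl1, a LIM homeobox factor of striatal and cholinergic lineages, had 0.0438, 0.271 and 0.551 CPM in BLA and 12.3, 12.8 and 18.4 CPM in CeA (log2 fold change -5.55 ± 0.33).

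The other genes with the largest CeA excess included the receptors Brs3 (the orphan bombesin receptor subtype 3) and Avpr1a (the vasopressin V1a receptor), the calcium sensor secretagogin (Scgn), galanin (Gal), the lipoxygenase gene Alox12e, the growth factor gene Fgf3, Irs4 (an insulin receptor substrate), Dgkk (diacylglycerol kinase kappa), Col6a5 (a collagen VI chain), Pgr15l and Nup62cl. Their log2 fold changes ran from -5.48 (Pgr15l) to -4.41 (Dgkk). No pair of groups overlapped, which again follows largely from choosing genes by the size of the difference. Of the 15 genes on the CeA side, 8 moved by over 1.5 times when 1 pair was left out, among them Scgn (-4.64, with -6.55 without the Ext pair and -4.05 without the naive pair), Gal (-4.63, and -5.57 without the naive pair) and Isl1 (-5.55, and -6.20 without the Ext pair). Of the 15 genes on the CeA side, 5 lie on the X chromosome (Pgr15l, Nup62cl, Brs3, Irs4 and Dgkk) and none of the 15 on the BLA side do. The X chromosome holds 3.59% of all tested genes, 6.99% of those at least 4-fold higher in CeA and 0.847% of those at least 4-fold higher in BLA, and no difference between these shares was tested. Dgkk was among the more abundant, with 1.45, 1.57 and 1.80 CPM in BLA and 40.0, 44.6 and 27.7 CPM in CeA.

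In the CeA neuron list, also chosen with earlier results known, 15 of 16 members were higher in CeA and none in BLA (median log2 fold change -3.14). Dlk1, a non-canonical Notch ligand, had 7.23, 9.04 and 8.10 CPM in BLA and 124.6, 115.7 and 148.6 CPM in CeA. Dlx5 and Dlx6, homeobox factors of GABAergic neurons, differed by -2.36 ± 0.11 and -2.87 ± 0.13 on the log2 scale. The member not called was Htr2a, the serotonin 2A receptor, with 7.30, 8.10 and 5.09 CPM in BLA and 6.44, 5.21 and 5.23 CPM in CeA (log2 fold change 0.35 ± 0.15, adjusted p = 0.103).

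Striatal projection neuron genes were also higher in CeA, for 14 of 15 members (median log2 fold change -2.06). Adora2a, an adenosine receptor of indirect-pathway neurons, had 13.9, 24.1 and 42.8 CPM in BLA and 204.1, 154.2 and 274.5 CPM in CeA. Drd2, the dopamine D2 receptor of the same neurons, had 4.84, 9.33 and 12.7 CPM in BLA and 75.0, 57.8 and 93.6 CPM in CeA (log2 fold change -3.04 ± 0.24). Drd1, the dopamine D1 receptor of direct-pathway neurons, showed no such gap: it had 49.2, 46.1 and 52.5 CPM in BLA and 62.7, 44.6 and 63.5 CPM in CeA, and the groups overlapped (log2 fold change -0.11 ± 0.08, adjusted p = 0.334). CeA neurons themselves use many striatal genes. The summed level of the list was 753.5 to 1167 CPM in BLA and 3669 to 5090 CPM in CeA. Penk, which is also on the CeA neuron list, had the most CeA counts of its members (266624). The part of neighboring striatal tissue in the sum was not tested.

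Subpallial transcription factors divided: 17 of 28 were higher in CeA, 4 in BLA and 7 passed in neither direction (median log2 fold change -1.34). Ebf1 (log2 fold change -3.37 ± 0.11) and Zfhx3 (-3.36 ± 0.07), factors of striatal neurons, had the next largest gaps after Isl1. The 4 higher in BLA were Nr2f2, Dlx1, Lhx6 and Tshz1, the first 3 of which are factors of interneurons from the ganglionic eminences. Nr2f2 had 158.6, 146.7 and 133.9 CPM in BLA and 22.8, 32.8 and 30.4 CPM in CeA. Tshz1 lost its call without the naive or the Ext pair.

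**Figure D2:**
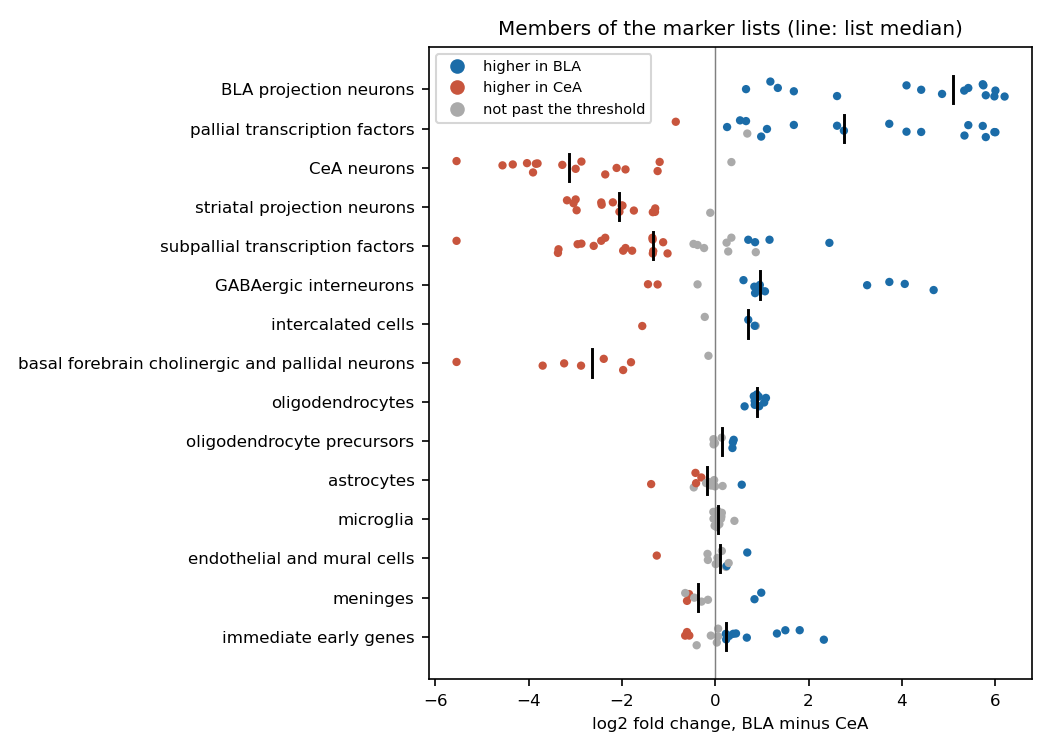
Log2 fold change, BLA minus CeA, of each tested member of 15 gene lists (1 dot per gene; blue higher in BLA, red higher in CeA, grey not past the threshold; black line, list median). The projection neuron medians stand at 5.10 for BLA and -3.14 for CeA, oligodendrocyte genes sit together near 0.89, and microglial genes sit at 0.05 with none called.

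Interneuron markers were mostly higher in BLA, with 10 of 13 there and 2 higher in CeA. Cholecystokinin (Cck), vasoactive intestinal peptide (Vip), parvalbumin (Pvalb) and the serotonin 3A receptor (Htr3a) had log2 fold changes of 4.68 ± 0.29, 4.06 ± 0.20, 3.73 ± 0.24 and 3.26 ± 0.24. Pvalb, of fast-spiking interneurons, had 17.2, 17.9 and 25.2 CPM in BLA and 1.68, 1.96 and 1.16 CPM in CeA. Cck is also a transcript of glutamatergic cells. The 2 members higher in CeA were Sst and Lamp5, and Sst (somatostatin) belongs to CeA neurons as well, with 209.7, 222.3 and 328.6 CPM in BLA and 658.6, 564.6 and 644.4 CPM in CeA.

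Intercalated cell markers had no common direction, with 2 of 5 higher in BLA (1 without the naive or the Ext pair, and 3 without the FC pair) and 1 higher in CeA. Foxp2, a forkhead factor of these cells, had 22.8, 20.4 and 28.4 CPM in BLA and 12.4, 22.8 and 9.04 CPM in CeA (log2 fold change 0.87 ± 0.32, adjusted p = 0.0629). Tshz1 behaved likewise at 56.5, 47.1 and 51.2 CPM in BLA and 28.2, 51.4 and 25.8 CPM in CeA. For both, the FC CeA library reached the level of the BLA libraries and the naive and Ext CeA libraries did not. Oprm1, the mu opioid receptor, had 1.77, 2.21 and 0.276 CPM in BLA and 4.57, 7.71 and 1.02 CPM in CeA, and was 2.96-fold higher in CeA within pairs although the groups overlapped.

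Neuropeptide genes differed strongly in both directions: of 28 tested, 15 were higher in CeA and 11 in BLA (median log2 fold change -1.23). On the CeA side, Penk, the enkephalin precursor, was the most abundant, with 139.7, 194.0 and 323.1 CPM in BLA and 1770, 1462 and 2058 CPM in CeA. Its BLA level was highest in the Ext library, and the groups stood well apart (log2 fold change -2.99 ± 0.19, adjusted p = 7.84e-05). Pdyn, the dynorphin precursor, had 19.1, 18.0 and 36.0 CPM in BLA and 449.1, 314.7 and 469.1 CPM in CeA (log2 fold change -4.04 ± 0.16). Crh, corticotropin-releasing hormone, had 1.16, 2.11 and 3.34 CPM in BLA and 35, 28.9 and 32.8 CPM in CeA. Tac2 (neurokinin B) and Nts (neurotensin), both carried by distinct CeA neurons, were 14.4-fold and 9.71-fold higher in CeA. Cartpt, whose promoter is shown above, had 0.723, 1.503 and 1.73 CPM in BLA and 33.5, 21.4 and 31.8 CPM in CeA. Avp (vasopressin) had 129 counts over the CeA libraries and none over the BLA libraries, and was at least 44.3-fold higher in CeA against 3 counts over the BLA group.

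On the BLA side of the same class, Bdnf, the neurotrophin that acts in synaptic plasticity, had 51.3, 53.2 and 53.0 CPM in BLA and 2.01, 1.69 and 0.984 CPM in CeA. It was 36.6-fold higher in BLA (log2 fold change 5.19 ± 0.19, adjusted p = 2.10e-05), and, unlike many genes with a BLA excess, its FC CeA level lay between those of the other CeA libraries. Adcyap1, which encodes PACAP, had 11.8, 10.8 and 11.2 CPM in BLA and 0.0711, 1.92 and 0.304 CPM in CeA, with a log2 fold change of 4.19 that was 5.92 without the FC pair and 3.57 without the naive pair. Grp, gastrin-releasing peptide of BLA excitatory cells, had 8.66, 7.72 and 8.87 CPM in BLA and 0.332, 4.07 and 0.233 CPM in CeA, so the FC pair differed far less than the other pairs. Grp passed in the full fit (adjusted p = 0.0198) and lost its call without the naive or the Ext pair. Npy, neuropeptide Y, differed by 1.94-fold, with 74.0, 74.5 and 114.5 CPM in BLA and 41.0, 49.3 and 51.3 CPM in CeA.

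**Figure D3:**
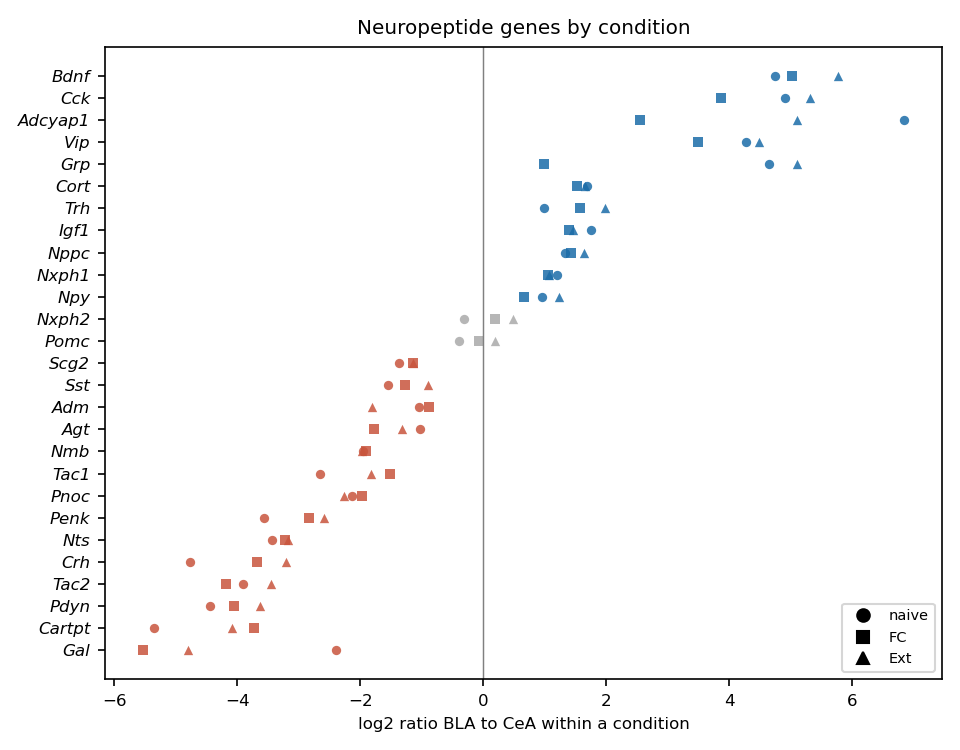
Log2 ratio of BLA to CeA within each condition (circle naive, square FC, triangle Ext) for the tested neuropeptide and growth factor genes other than Avp (blue higher in BLA, red higher in CeA, grey not past the threshold). Bdnf and Cck lead the BLA side and Cartpt, Pdyn and Tac2 stand on the CeA side, while Grp and Adcyap1 have FC points of 0.99 and 2.55 well below their naive points of 4.65 and 6.84.

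Among 43 receptors and binding proteins for such peptides, 20 were higher in CeA and 13 in BLA, with a median log2 fold change of -0.16. Over all tested genes 24.8% were higher in CeA and 24.7% in BLA. Calcr, the calcitonin receptor, had 0.723, 0.605 and 0.973 CPM in BLA and 12.05, 10.7 and 11.7 CPM in CeA (log2 fold change -3.81 ± 0.16). Oxtr, the oxytocin receptor, had 12.8, 21.3 and 15.9 CPM in BLA and 37.2, 42.3 and 40.4 CPM in CeA. Receptors for neurotensin (Ntsr1), substance P (Tacr1) and VIP and PACAP (Vipr2) were 5.23-fold, 3.64-fold and 8.16-fold higher in CeA. The BLA side held the orexin receptor Hcrtr1, the somatostatin receptor Sstr3, the cholecystokinin receptor Cckbr and Crhbp, the secreted binding protein of corticotropin-releasing hormone. Crhbp had 63.3, 61.3 and 74.6 CPM in BLA and 3.65, 8.13 and 4.85 CPM in CeA, the reverse of its ligand Crh. The receptor of that ligand, Crhr1, was 1.56-fold higher in BLA (log2 fold change 0.64 ± 0.10, adjusted p = 0.00342).

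GABA synthesis and loading genes were higher in CeA but far from absent in BLA. Gad1 and Gad2, the glutamate decarboxylases, were 1.81-fold and 3.27-fold higher in CeA. Slc32a1, the vesicular GABA transporter, had 104.9, 100.9 and 154.1 CPM in BLA and 370.0, 350.1 and 469.7 CPM in CeA (log2 fold change -1.65 ± 0.06, adjusted p = 1.72e-05). Of 14 GABA-A receptor subunits, 8 were higher in CeA and 4 in BLA, and the subunits with the largest gaps were ones of restricted use. Gabre (epsilon) and Gabrq (theta) differed by -4.03 ± 0.17 and -2.70 ± 0.10 on the log2 scale, and Gabrg1 (gamma 1) had 35.5, 34.1 and 34.7 CPM in BLA and 198.5, 152.1 and 166.8 CPM in CeA. Alpha subunits were called in both directions: Gabra3 was 3.07-fold higher in BLA, and Gabra5 was 2.50-fold higher in CeA. Gabbr2, a subunit of the GABA-B receptor, was 3.27-fold higher in BLA.

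Glutamate transport and ionotropic receptor genes leaned to BLA, with 13 of 24 higher there and 4 higher in CeA (median log2 fold change 0.34). Beyond Slc17a7, the second vesicular transporter Slc17a6 (VGLUT2) had 41.6, 35.6 and 31.8 CPM in BLA and 1.09, 9.25 and 1.57 CPM in CeA, with a log2 fold change of 3.67 that was 4.83 without the FC pair and 3.03 without the naive pair. Among receptor subunits, the NMDA subunit Grin3a was 3.04-fold higher in BLA and the AMPA subunit Gria3 1.69-fold higher. Grik4, a kainate receptor subunit, went the other way, with 6.82, 8.39 and 9.26 CPM in BLA and 27.7, 26.4 and 26.2 CPM in CeA. Of 7 metabotropic glutamate receptors, 3 were higher in BLA and 2 in CeA, against 24.7% and 24.8% of all tested genes. Grm2, a presynaptic one, had 109.2, 96.3 and 100.7 CPM in BLA and 6.11, 10.2 and 9.20 CPM in CeA.

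Monoamine and acetylcholine receptors were called in 26 of 36 cases, against 49.5% of all tested genes. Of the 36, 18 were higher in BLA and 8 in CeA, against 24.7% and 24.8% of all tested genes. The alpha-1D adrenergic receptor Adra1d had 8.81, 7.87 and 8.70 CPM in BLA and 0.474, 0.988 and 0.573 CPM in CeA (log2 fold change 3.73 ± 0.25). Several nicotinic subunits were higher in BLA, among them Chrna5 (log2 fold change 4.42 ± 0.59), Chrna4 (2.67) and Chrna3 (2.36), and Chrna2 was higher in CeA (-2.79 ± 0.23). The muscarinic M5 receptor Chrm5 had 0.438, 0.710 and 0.438 CPM in BLA and 5.40, 9.06 and 4.35 CPM in CeA. Genes of cholinergic and pallidal neurons were higher in CeA for 7 of 8 members, at low levels: Chat, the acetylcholine-synthesizing enzyme, had 0.329, 0.438 and 0.892 CPM in BLA and 7.18, 6.84 and 8.57 CPM in CeA. The summed level of that list was 5.24 to 10.2 CPM in BLA and 53.1 to 69.9 CPM in CeA, and its part in other CeA differences was not tested.

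Phospholipase A2 genes, which release fatty acids from membrane phospholipids and give the series its title, were called about as often as genes at large. Of 16 tested genes of phospholipases A2 and platelet-activating factor hydrolases, 6 were higher in BLA and 2 in CeA, a total of 8 calls against 49.5% over all genes, and the median log2 fold change was 0.06. Without the naive, FC or Ext pair the calls were 3 and 2, 3 and 1, or 2 and 1. Pla2g4e, the epsilon form of cytosolic phospholipase A2, which makes precursors of N-acylethanolamines, had 27.3, 23.7 and 27.3 CPM in BLA and 53.3, 58.5 and 52.3 CPM in CeA. Its groups did not overlap, it was 1.98-fold higher in CeA (log2 fold change -0.98 ± 0.09, adjusted p = 0.000331), and it kept its call without any one pair. Pla2g4a, the alpha form, was higher in BLA (log2 fold change 0.97 ± 0.23, adjusted p = 0.0139) and lost its call in 2 of 3 cases with a pair left out. Pafah1b1 (LIS1, the regulatory subunit of 1 such hydrolase) had 792.4, 266.2 and 220.5 CPM in BLA and 634.1, 592.0 and 601.5 CPM in CeA, so the naive BLA library stood apart and the gene was not called (adjusted p = 0.136).

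In the pathways that use such lipids, 12 of 25 endocannabinoid and eicosanoid genes were higher in BLA and 4 in CeA, against 24.7% and 24.8% over all tested genes. Ptgs2, cyclooxygenase-2 of excitatory neurons, had 9.69, 10.8 and 9.06 CPM in BLA and 0.782, 1.16 and 0.644 CPM in CeA (log2 fold change 3.61 ± 0.16). Of the genes of N-acylethanolamine turnover, Napepld, a synthesizing phospholipase D, was 3.05-fold higher in BLA and Faah, a degrading hydrolase, 2.80-fold higher. Naaa, another degrading hydrolase, was higher in CeA (log2 fold change -0.30 ± 0.08, adjusted p = 0.026) and lost its call in 2 of 3 cases with a pair left out, and Abhd4, of the synthesis pathway, was not called (-0.12, adjusted p = 0.157). Cnr1, the cannabinoid CB1 receptor, had 388.0, 330.7 and 298.8 CPM in BLA and 198.3, 179.1 and 165.7 CPM in CeA. Mgll, which degrades 2-arachidonoylglycerol, was higher in CeA (log2 fold change -0.48 ± 0.09). The count of 4 in CeA fell to 2 without any one pair.

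Second-messenger genes leaned to CeA, with 17 of 32 cyclic nucleotide and G protein signaling genes higher there and 9 higher in BLA. Ppp1r1b (DARPP-32), the dopamine- and cyclic AMP-regulated phosphatase inhibitor, had 97.2, 141.1 and 195.7 CPM in BLA and 859.1, 637.4 and 934.2 CPM in CeA. The phosphodiesterases Pde1c and Pde7b had log2 fold changes of -3.72 ± 0.15 and -2.96 ± 0.09. Adenylyl cyclases exchanged places: Adcy1, the calcium-stimulated form, was 3.98-fold higher in BLA and Adcy5, the striatal form, 2.45-fold higher in CeA.

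Ion channels differed widely but in both directions. Of 41 potassium channel genes 22 were higher in BLA and 11 in CeA, and of 28 sodium, calcium and HCN channel genes 11 went each way. Over all tested genes 24.7% were higher in BLA and 24.8% in CeA. Kcnv1, a modulatory potassium channel subunit, had 90.0, 90.9 and 72.0 CPM in BLA and 15.6, 15.9 and 11.9 CPM in CeA (log2 fold change 2.63 ± 0.06). Cacna2d2, an auxiliary calcium channel subunit, had 34.04, 34.3 and 35.7 CPM in BLA and 202.2, 226.3 and 184.2 CPM in CeA, and was 5.53-fold higher in CeA.

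Calcium-binding protein genes were called in 14 of 22 cases, against 49.5% of all tested genes. Of the 22, 9 were higher in BLA, led by Pvalb, and 5 in CeA (3 without the Ext pair), led by Scgn. Perineuronal net genes had 4 of 13 higher in BLA and 3 in CeA, a total of 7 calls against 49.5% over all genes. Hapln4, a link protein of these nets around fast-spiking cells, had 169.1, 160.7 and 159.4 CPM in BLA and 19.0, 22.9 and 24.4 CPM in CeA. Acan, the net proteoglycan aggrecan, was at 1.94 to 2.73 CPM in BLA and 3.25 to 4.83 CPM in CeA, and its call was lost in 2 of 3 cases with a pair left out.

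Axon guidance genes leaned to BLA, with 26 of 47 higher there and 9 in CeA (median log2 fold change 0.45). The shares over all tested genes were 24.7% and 24.8%. Epha7, an ephrin receptor, had 116.5, 110.1 and 98.9 CPM in BLA and 30.1, 29.8 and 30.3 CPM in CeA. Sema3f, a secreted semaphorin, was 6.27-fold higher in CeA (log2 fold change -2.65 ± 0.07). Cadherins and protocadherins were called in 15 of 20 cases, against 49.5% of all tested genes, 8 higher in BLA and 7 in CeA. Cdh8 led the BLA side with a 4.20-fold difference.

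Immediate early genes, which neurons switch on with activity, differed between regions member by member. Of 18, 10 were higher in BLA and 3 in CeA, against 24.7% and 24.8% of all tested genes (median log2 fold change 0.23). Nptx2, a secreted pentraxin that gathers AMPA receptors, had 75.8, 89.0 and 96.3 CPM in BLA and 18.2, 18.0 and 18.7 CPM in CeA. Jun was 2.83-fold and Nr4a3 3.51-fold higher in BLA. Fos had 6.90, 8.52 and 9.06 CPM in BLA and 5.83, 10.5 and 9.07 CPM in CeA, with the groups overlapping (adjusted p = 0.730). Npas4, an inhibitory synapse regulator induced by activity, was 1.56-fold higher in CeA (log2 fold change -0.65 ± 0.08, adjusted p = 0.00103).

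Among non-neuronal cells, oligodendrocytes were the list with a common direction: all 10 genes were higher in BLA (median log2 fold change 0.89). Mog, a surface glycoprotein of myelin, had 49.1, 42.3 and 67.0 CPM in BLA and 24.3, 21.6 and 33.0 CPM in CeA (log2 fold change 1.09 ± 0.06, adjusted p = 4.43e-05). Mbp, myelin basic protein, had 1452, 1275 and 1952 CPM in BLA and 778.3, 803.6 and 1084 CPM in CeA. The Ext libraries were the highest of their region for all 10 genes in both regions. For 8 of the 10 the BLA and CeA groups did not overlap, against 49.1% of all tested genes. Precursor genes differed less, with 3 of 7 higher in BLA (Olig1, Olig2 and Sox10), and 1 of 7 without the Ext pair. Pdgfra, Cspg4, Gpr17 and Vcan were not called.

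None of 13 microglial genes was called by edgeR or by DESeq2 (median log2 fold change 0.05). Aif1 alone had an unadjusted p under 0.05, and 1 gene was called without the naive pair, with summed levels of 462.9 to 500.8 CPM in BLA and 478.2 to 521.2 CPM in CeA. Of 12 astrocyte genes 4 were higher in CeA and 1 in BLA. Over all tested genes 24.8% were higher in CeA and 24.7% in BLA, which is the background for this list and those that follow. Agt, angiotensinogen, made by astrocytes, had 9.97, 8.91 and 13.7 CPM in BLA and 21.8, 32.3 and 35.9 CPM in CeA. Endothelial and mural genes had 2 of 10 higher in BLA (1 without the FC pair) and 1 in CeA (2 without the naive pair), the smooth muscle actin Acta2, which was 2.39-fold higher there. Meningeal genes had 2 of 8 in each direction. Of 4 tested blood genes 2 were higher in BLA, and 1 without the Ext pair. The globin genes among them are near-identical copies: Hbb-bs had 25.1, 0 and 41.8 CPM in BLA while Hbb-b1 had 0.0877, 49.2 and 0.0973 CPM, and the value of either copy is uncertain.

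Markers of neighboring tissue were mixed, and the background over all tested genes was 24.8% higher in CeA and 24.7% higher in BLA. Of 11 tested cortical and hippocampal genes, 6 were higher in CeA and 3 in BLA, and 4 rather than 6 in CeA without any one pair. Wfs1, the wolframin gene, known from hippocampal area CA1 and also from the CeA and striatum, was 4.11-fold higher in CeA, whereas Ntng2 (netrin G2) had a log2 fold change of 3.87 ± 0.17 toward BLA. Thalamic and hypothalamic genes had 3 of 7 higher in CeA, and 2 without the naive pair. They were Avp, described above among the neuropeptides, Gbx2 (log2 fold change -3.07) and Hdc (-1.08), which lost its call without the naive pair. The part of neighboring tissue in these differences was not tested. Hcrt, Oxt, Otp, Sim1 and Agrp were at or below 0.161 CPM in every S1 library and did not enter the test. Choroid plexus and ependymal genes were tested in 5 cases and 3 were higher in CeA. The choroid plexus gene Ttr was at 0 in the naive and Ext CeA libraries and 2.77 CPM in the FC CeA library, and Folr1 and Kcnj13 were at or below 0.266 CPM in every S1 library, while Kl and Clic6 were 8.73-fold and 8.18-fold higher in CeA.

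The 3 pairs did not show the difference equally. For the BLA projection neuron list the median log2 ratio of BLA to CeA was 5.88 in the naive pair, 4.18 in the FC pair and 5.26 in the Ext pair. The FC CeA library was the highest CeA library for 14 of the 16 markers, and for 226 of the 354 genes at least 4-fold higher in BLA. It was the highest for 91 of the 286 genes at least 4-fold higher in CeA, and no such count was made over all tested genes. Slc17a7 in CeA stood at 0.881% of its BLA level in naive mice, 4.98% in FC mice and 0.685% in Ext mice. In the other direction, the Ext BLA library was the highest BLA library for 13 of 16 CeA neuron markers, and for 163 of the 286 genes at least 4-fold higher in CeA. Among the 354 genes at least 4-fold higher in BLA it was the highest for 123. Isl1 in BLA stood at 0.356% of its CeA level in naive mice, 2.12% in FC mice and 3.004% in Ext mice.

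**Figure D4:**
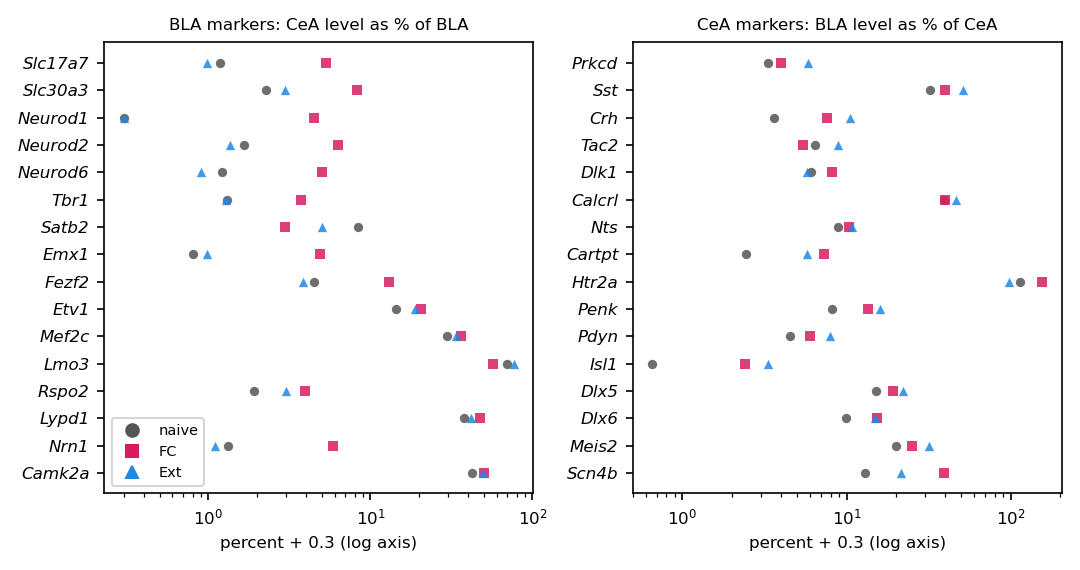
Level of each marker in the region it does not mark, as a percentage of the level in the region it marks, plus 0.3 (log axis), for 16 BLA projection neuron markers (left) and 16 CeA neuron markers (right) in the naive, FC and Ext pairs. Slc17a7 reached 4.98% in the FC CeA library against 0.881% and 0.685% in the other pairs. Prkcd reached 5.55% in the Ext pair against 3.04% and 3.70%, with a level BLA value (9.03, 10.2 and 10.4 CPM in naive, FC and Ext). Its CeA level was lowest in the Ext pair (188.2 CPM against 296.8 and 275.0 CPM). A higher percentage can thus come from either region.

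The FC pair was set against the mean of the naive and Ext pairs, with 1 residual degree of freedom. The FC arm is 1 pair of libraries. A gene's own spread comes only from the difference between the other 2 pairs, and edgeR draws it toward a trend over all tested genes. The calls therefore describe the FC pair, and conditioning and the single libraries cannot be told apart. At an adjusted p under 0.05 (edgeR), 26 of 15687 genes passed (0.166%), 7 with a difference shifted toward BLA and 19 toward CeA. Of the 26, 7 were BLA projection neuron markers, among them Slc17a7 (-2.70 ± 0.17 on the log2 scale, adjusted p = 0.0109), Neurod6 (-2.67 ± 0.23), Nrn1 (-2.63 ± 0.18), Neurod2 (-2.33 ± 0.20) and Tbr1 (-1.80 ± 0.16). The same comparison named Grp (-4.06 ± 0.35, adjusted p = 0.0140) and Slc17a6 (-2.81 ± 0.32). In 14 of the 26 genes the FC CeA library was at least 2-fold above both other CeA libraries, and all 14 had a higher fitted level in BLA over the 3 pairs, 12 of them as calls. The part that BLA RNA in the FC CeA library had in these calls was not tested.

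A different pattern was shown by Sumo3, a small ubiquitin-like modifier, whose FC CeA level of 58.0 CPM lay below the 195.4 and 198.7 CPM of the other CeA libraries, with 107.1 to 123.4 CPM in BLA (1.63 ± 0.13). Zfp266, a zinc finger gene, had 12.1 CPM in FC CeA and 46.2 and 40.3 CPM in the other CeA libraries. Ncald, the calcium sensor neurocalcin delta, had 194.8, 184.8 and 150.5 CPM in BLA and 67.1, 279.1 and 59.2 CPM in CeA, so that the FC CeA library lay above every BLA library. Without the filter on low counts 1 gene passed, and it was the globin copy Hbb-b1, which is uncertain because near-identical copies share its reads.

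The Ext pair was set against the mean of the naive and FC pairs in the same way, again 1 pair against 2, so extinction and the single libraries cannot be told apart. By that comparison 15 of 15687 genes passed (0.0956%), 3 shifted toward BLA and 12 toward CeA. In 13 of the 15 the Ext BLA library lay at least 2-fold below both other BLA libraries. Slc8a1, a plasma membrane sodium-calcium exchanger, had 269.0, 297.6 and 22.04 CPM in the naive, FC and Ext BLA libraries and 149.5, 167.1 and 119.3 CPM in CeA (-3.29 ± 0.12 on the log2 scale, adjusted p = 0.00116). Slc24a2, a potassium-dependent exchanger of the same ions, moved the other way, with 126.8, 142.6 and 231.2 CPM in BLA and 112.2, 126.2 and 32.5 CPM in CeA (2.64 ± 0.12, adjusted p = 0.00133). Gpx1, glutathione peroxidase 1, exchanged its order: BLA lay above CeA in naive and FC mice (53.2 and 50.7 against 16.2 and 17.4 CPM) and below it in the Ext pair (18.0 against 87.0 CPM). Tet2, a DNA demethylating enzyme, had 31.6, 53.7 and 2.85 CPM in BLA and 69.7, 84.9 and 55.5 CPM in CeA. The Ext libraries were deposited in a table of their own, and that table and the condition cannot be told apart.

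The difference between BLA and CeA was then set against that of B6 mice, in 12 libraries with an interaction of strain and region. Of 15683 genes, 4 passed at an adjusted p under 0.05 (edgeR), which is 0.0255%, and 865 had an unadjusted p under 0.05. Col6a5, a collagen VI chain, was low in all BLA libraries of both strains (0.897 to 1.64 CPM), and in CeA it had 42.3, 48.2 and 32.4 CPM in S1 against 3.84, 4.81 and 2.28 CPM in B6. The region difference was thus larger in S1 by -3.37 ± 0.27 on the log2 scale, in all 3 conditions (adjusted p = 0.0118). Coch, cochlin, a secreted protein of the inner ear, was lowest in S1 BLA: it had 9.31, 10.9 and 10.7 CPM there, 40.6, 39.4 and 40.1 CPM in S1 CeA, and 22.2 to 30.7 CPM in all B6 libraries (-1.83 ± 0.15). Ankrd33b, an ankyrin repeat gene, changed order, with BLA above CeA in B6 (102.3, 104.5 and 93.4 against 36.6, 31.5 and 26.9 CPM) and below it in S1 (9.71, 12.7 and 11.2 against 25.4, 27.1 and 14.8 CPM). Myh6, a cardiac myosin heavy chain, had 6.95, 8.33 and 9.14 CPM in S1 BLA and 11.8, 14.1 and 20.01 CPM in S1 CeA, while in B6 it had 2.003, 0.367 and 1.64 CPM in BLA and at most 3 counts in each CeA library. Each of the 4 lost its call without at least 1 of the conditions, and without the FC libraries no gene passed in edgeR while 471 had an unadjusted p under 0.05. DESeq2 gave 84 calls, which held all 4.

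**Figure D5:**
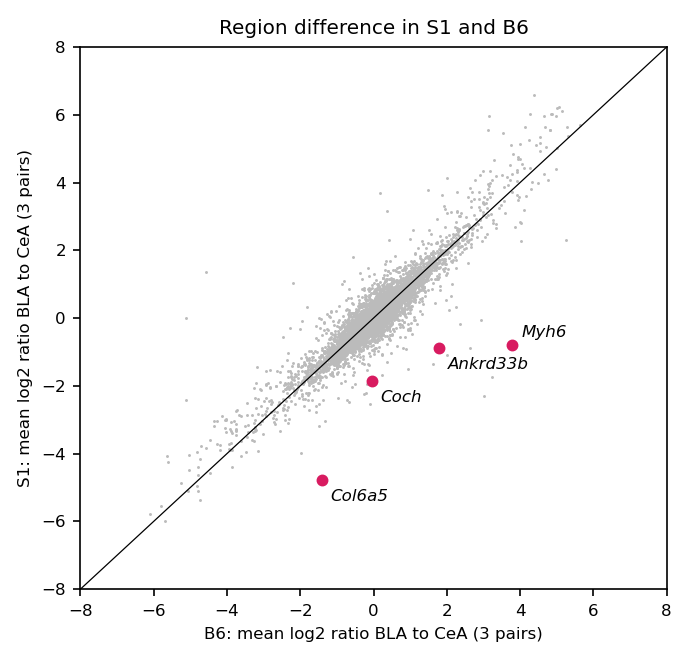
Mean log2 ratio of BLA to CeA over the 3 conditions in S1 (vertical) against B6 (horizontal) for genes with a mean of at least 1 CPM, with the line of equality and the 4 genes past the threshold in red. Col6a5 lies at -4.79 in S1 and -1.42 in B6, and Coch at -1.87 and -0.04.

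Of 572 tested members of the 35 gene lists, none passed this strain test in edgeR, 86 had an unadjusted p under 0.05, and 18 passed in DESeq2. Oligodendrocyte genes had a median difference of 0.60 between strains, S1 minus B6, with summed levels in CeA of 1855 to 2645 CPM in S1 and 3454 to 3917 CPM in B6, and in BLA of 3108 to 4416 and 3949 to 4879 CPM. For Mog the strain difference was 0.78 ± 0.11 (adjusted p = 0.14). Pla2g4e had 6.59, 4.77 and 4.03 CPM in B6 BLA and 5.01, 4.63 and 5.50 CPM in B6 CeA, and its fitted region difference was -0.98 in S1 and 0.12 in B6. The test of that difference gave -1.10 ± 0.22 and an adjusted p of 0.30. The BLA projection neuron list had a median strain difference of 0.82, and in B6 the naive CeA library held Slc17a7 at 178.9 CPM against 38.3 and 29.5 CPM in the FC and Ext CeA libraries. The part of that library in the strain comparison was not tested.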

How the data were processed

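RNA was extracted with RNeasy columns and made into TruSeq Stranded mRNA libraries, per the labels' protocols. The authors deposited read counts and FPKM (fragments scaled by transcript length and library size) per transcript and per gene, 1 pair of tables for the naive and FC libraries and another for the Ext libraries. StringTie is named in the submitters' processing notes and mm10 in the tables, while aligner, software versions and strand setting of the counting are not given in these sources. Where counting ignored strand, overlapping and antisense genes cannot be told apart. The deposited transcript counts are whole numbers, not normalized, and were summed over 36779 transcripts to 24531 genes. In the S1 libraries these sums differed from the deposited gene counts in 73 to 95 genes. Transcript length, the other deposited measure per the file headers, was used only to describe genes. A count column of the gene table, 1 in all, matched no single sample and was left out. No 2 libraries were identical.

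Tests on the counts used edgeR 4.0.16 under R 4.3.3 (quasi-likelihood F test, TMM scaling, filterByExpr, Benjamini-Hochberg adjustment, threshold 0.05), with BLA and CeA paired by condition and 2 residual degrees of freedom. The comparison with B6 had 4, and those of conditions 1. The test was also run on simulated counts with few changed genes and no condition or library effects. These differ from the present data, so that run is no check of the test in this design. Ratios within a pair used a prior count of 2. A standard error is the absolute log2 fold change divided by the square root of F, and adjusted p-values are edgeR's unless another tool is named. limma 3.58.1 (on the deposited FPKM values) and DESeq2 1.42.0 served as alternatives, beside other size factors, filters, designs and left-out pairs.

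Genes were named by a rule: the 15 largest differences in each direction past the threshold with a mean of at least 1 CPM and the same sign in 3 pairs (8 in each direction for the strain comparison, 5 for the comparisons of conditions), without predicted genes, plus members of 35 gene lists. Members and lists were chosen with earlier results of these data known. Promoter sequences are from RefSeq (GRCm38.p6), with 12316 of 15687 tested genes matched by gene ID. Bounds against 3 counts cover counting error only. Results for a few genes are not reported here.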

Additional observations from a re-analysis of the deposited data

Results flagged for a closer look

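The difference between BLA and CeA was not the same in the 2 strains for 4 genes, by a test of the interaction itself. The log2 differences, S1 minus B6, were -5.61 for Myh6, -2.67 for Ankrd33b, -1.83 for Coch and -3.37 for Col6a5. All 3 conditions had the same sign for each gene. Myh6 had at most 3 counts in each B6 CeA library, so its fitted value depends on the prior count and is no bound.

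The extinction pair differed from the other 2 S1 pairs, on the log2 scale, by 2.64 for Slc24a2, 1.91 for Zdbf2 and 1.90 for Akap2, and by -11.8 for Gm3002, -5.96 for Gm3055, -3.91 for Gpx1, -3.40 for Tet2 and -3.29 for Slc8a1. Gm3002, a predicted gene, had 8.37 and 8.93 CPM in the naive and FC BLA libraries, no count in the Ext BLA library, and 8.52 to 8.82 CPM in CeA. Zdbf2 was low in both Ext libraries (10.3 CPM in BLA and 11.5 in CeA), against 39.2 and 40.6 CPM in BLA and 167.2 and 169.6 CPM in CeA in the naive and FC libraries. Gm3055 did not pass with RLE size factors or without the low-count filter.

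The FC pair differed from the naive and Ext pairs by 8.97 for Hbb-b1, 2.17 for Synj2bp-cox16, 1.95 for Zfp266, 1.73 for Fam134c and 1.63 for Sumo3. Toward CeA it differed by -4.06 for Grp, -3.16 for Ino80d, -3.04 for Rtn4rl2, -2.89 for Rn45s and -2.81 for Slc17a6. Ino80d and Rn45s did not pass in DESeq2. Each of these comparisons sets 1 pair of libraries against 2, so the condition and the single libraries cannot be told apart. Members of the gene lists past the threshold were Slc17a7 (-2.70), Neurod6 (-2.67), Nrn1 (-2.63), Neurod2 (-2.33), Ncald (-2.05), Tbr1 (-1.80), Slc30a3 (-1.79) and Fezf2 (-1.75). Rn45s, the ribosomal RNA precursor, took 0.154% of counts in FC BLA and 1.71% in FC CeA, 0.590% and 1.21% in the naive libraries, and 0.0453% and 0.0502% in the Ext libraries. Synj2bp-cox16 is a read-through gene that overlaps its parts, and Hbb-b1 shares reads with near-identical globin copies, so both values are uncertain.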

How the results depend on the processing

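The count of genes that differed between regions was 5149 to 8056 over 12 alternatives, and 5740 to 6606 with a pair left out. It moved by over 1.5 times in 1 case: 5149 calls without the condition block, of which 5124 were shared with the 7760. All 30 genes named for the region difference kept direction and call in all 12. The strain comparison gave 84 calls with DESeq2 (4 shared) and 0 to 5 with a condition left out, and its 4 named genes kept direction and each lost its call at least once. The comparison of the extinction pair gave 44 calls with DESeq2, and Gm3055 lost its call with RLE size factors (adjusted p = 0.0531) and without the low-count filter (0.111). That of the FC pair gave 51 with DESeq2 and 1 without the low-count filter, where 17 of 18 named genes lost their call with direction unchanged, and Ino80d and Rn45s also lost theirs in DESeq2 (adjusted p = 1 for both). The cause was not tested. No value reversed. No paired analysis was possible on replicate numbers because every group has 1 library; BLA and CeA were paired by condition in the main test instead. Counts of list members without each pair were added after the data were seen. Genes with few counts in one region have fold changes that depend on depth, and 3 counts were 0.0486 to 0.071 CPM.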
